A study of Phrynocephalus vlangalii with 2 samples.

Results

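Heart regulators and natriuretic peptides were followed in the toad-headed lizard Phrynocephalus vlangalii, in a transcriptome assembled from the reads. Members were the assembled genes whose annotation text contained T-box protein 5, homeobox protein Nkx-2.5 or natriuretic peptide, in any case. These were 9 of the 58458 assembled genes in the deposited table, under 6 names. They were 2 copies of T-box protein 5, 2 of homeobox protein Nkx-2.5, 1 of natriuretic peptide A, 1 each of the atrial natriuretic peptide receptor A and the clearance receptor, and 2 of receptor B. Each had reads in both libraries, so the class of copies with 0 reads in Maqu, which may not be lizard, held 0 of the 9. Such a class existed elsewhere in the table, with 10345 assembled genes that took 4.03% of the Madoi reads.

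The study compared adults of a Madoi and a Maqu population, to ask, as its title puts it, about adaptation of an animal without constant body temperature to high altitude. Each population gave 1 library, for which the labels list liver, lung, heart and muscle, so each is described here as a pool of these 4 tissues. The number of animals in a pool, their sex and the share of each tissue are not stated in the labels. The Madoi library held 63636521 estimated reads and the Maqu library 66401051. Because each population has a single library, there is no spread between replicates to set a difference against. No test was made, and a ratio describes these libraries rather than the populations. In such pools fewer heart cells, a smaller share of heart tissue and less RNA per cell cannot be told apart.

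T-box protein 5 and homeobox protein Nkx-2.5 are transcription factors that, in mouse and chick embryos, are needed to form the heart and remain active in heart muscle cells of the adult. In mouse they bind DNA together with GATA4, and the gene of natriuretic peptide A is one of their targets. Natriuretic peptide A is a hormone that atrial muscle cells release when stretched, which lowers blood volume and blood pressure through the kidney and vessels. It is cut into its active form by corin, acts through receptor A, a membrane guanylate cyclase that makes cGMP, and is removed from the blood by the clearance receptor and by the protease neprilysin.

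Both heart transcription factors were higher in the Madoi library by slightly more than 2-fold. The assembled gene named natriuretic peptide A and the receptor names were not. Which peptide of the family that gene encodes was not tested. T-box protein 5, as the sum of its copies, had 1369 Madoi reads and 630 Maqu reads. Homeobox protein Nkx-2.5 had 529 Madoi reads and 260 Maqu reads. Natriuretic peptide A, with the most reads of the 6 names, had 3316 Madoi reads and 3805 Maqu reads.

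The size of these differences was expressed as the log2 ratio of Madoi over Maqu after scaling by the trimmed mean of M values (TMM), with an exact 95% interval that covers counting error only. A call of higher or lower required 10 reads over the pair of libraries, a 2-fold difference, and an interval that excluded a ratio of 1. T-box protein 5 was 2.34-fold higher in Madoi (interval 2.13 to 2.58), a log2 ratio of 1.23. Homeobox protein Nkx-2.5 was 2.19-fold higher (interval 1.89 to 2.56), a log2 ratio of 1.13. Both lie close above the 2-fold threshold, and the interval of Nkx-2.5 spans it.

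Of the 6 names, 2 were called higher in Madoi, 0 lower and 4 neither. Over all 4702 names with at least 10 reads, with copies lacking Maqu reads left out, 5.89% were called higher and 7.15% lower. A log2 ratio as high as that of T-box protein 5 was reached by 203 of these names, and one as high as that of Nkx-2.5 by 239. The members and the threshold were chosen with results of these libraries known, so the share among 6 names is a description.

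The copies of each transcription factor stood on the same side. The T-box protein 5 copy of 1269 bases, assembled as 3 transcripts, had 1050 Madoi reads and 451 Maqu reads, a log2 ratio of 1.33 (1.17 to 1.49). The copy of 743 bases had 319 Madoi reads and 179 Maqu reads, a ratio of 0.94 (0.68 to 1.22), just under the threshold. Both copies came from one assembly component and carried the same protein accession, so they are not taken as independent measurements; whether they are pieces of one gene was not tested.

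Homeobox protein Nkx-2.5 had a copy of 571 bases with 472 Madoi reads and 231 Maqu reads, a log2 ratio of 1.14 (0.91 to 1.37). Its copy of 357 bases had 57 Madoi reads and 29 Maqu reads, and a ratio of 1.07 (0.42 to 1.78). These copies came from different components and also shared a protein accession. The smaller one rests on few reads, and its interval is the wider for it.

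Of the 9 copies, 3 were called higher in Madoi, 0 lower and 6 neither. Among all assembled genes with at least 10 reads, 28.5% were called higher and 10.7% lower. Among those with reads in Maqu, as all 9 members had, the shares were 13.1% and 13.0%. Against 10.4% of all assembled genes, those without Maqu reads included, the authors' deposited table marks 0 of the 9 copies as significant. Its smallest FDR among them is 0.604, for the T-box protein 5 copy of 1269 bases, with a p-value of 0.122, and its FDR for the larger Nkx-2.5 copy is 0.655. No source used here names the test behind these values.

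**Figure D1:**
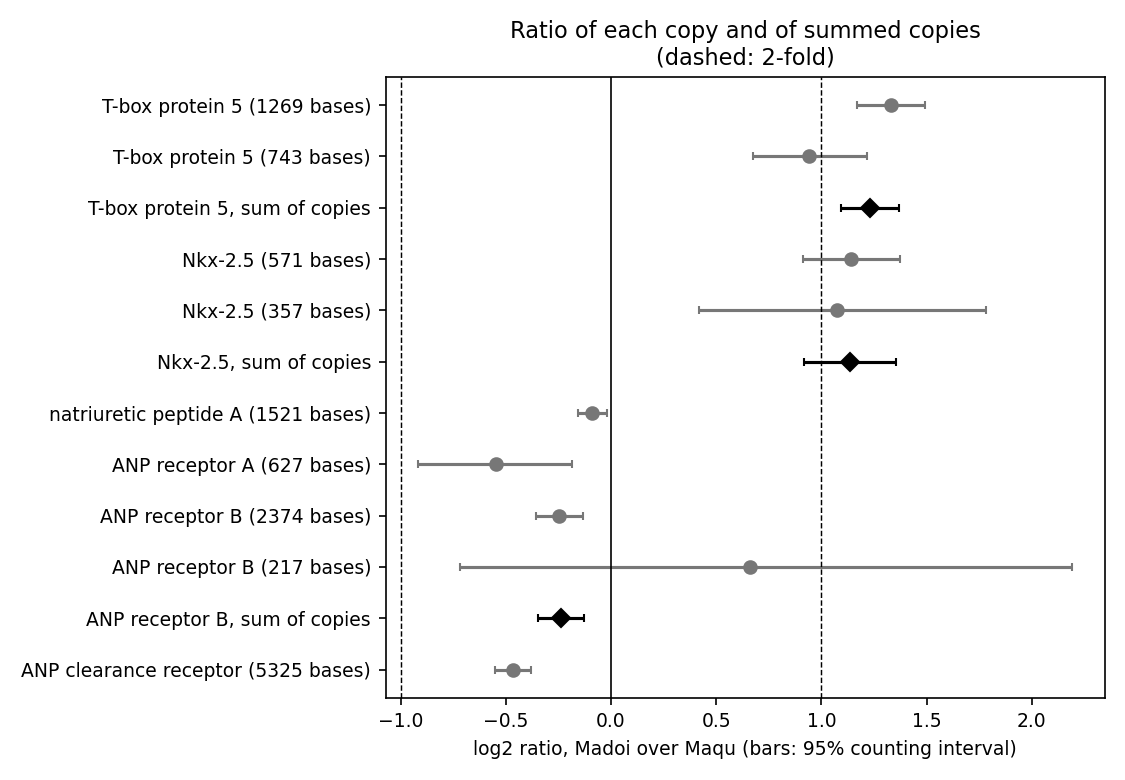
Log2 ratio of Madoi over Maqu on the x axis for each assembled copy (grey circles) and for summed copies (black diamonds); bars are exact 95% counting intervals, dashed lines mark 2-fold, and ANP stands for atrial natriuretic peptide. T-box protein 5 and Nkx-2.5 lie near 1, with sums at 1.23 and 1.13, while natriuretic peptide A lies at -0.09 and the receptors between -0.54 and -0.24 as names.

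The assembled gene that carries the hormone's name was nearly level between the libraries. Natriuretic peptide A was a single copy of 1521 bases and 1 transcript, with a log2 ratio of -0.09 (-0.16 to -0.02). The interval ends close to 0, and the value moves with the scaling, to -0.14 by library totals and to -0.08 by the median of ratios. The row carried an orthology annotation and no protein accession. Its name rests on that annotation, and which member of the peptide family the copy is was not tested. What is said here of the hormone holds if the name is right. No annotation text named a second member of the family, such as the B-type or C-type peptide, so none is analysed under such a name.

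All 3 receptor names had ratios of counts below 0, and none reached 2-fold. By the ratio of the authors' RPKM, summed over its copies, receptor B turned to 0.0048. Its larger copy alone had -0.04 by RPKM, and the 217-base copy, with 12 Madoi reads and 8 Maqu reads, had 0.64. Scaling to the summed reads of heart muscle markers lowers every log2 ratio by about 0.56. On that scale receptor A at -1.11 (-1.48 to -0.75) and the clearance receptor at -1.03 (-1.12 to -0.94) passed the 2-fold threshold, which both intervals span. Receptor A, through which natriuretic peptide A raises cGMP, had 104 Madoi reads and 164 Maqu reads, a log2 ratio of -0.54 (-0.92 to -0.18). Receptor B, whose main ligand in mammals is the C-type peptide, had 1199 Madoi reads and 1527 Maqu reads over its copies, a ratio of -0.24 (-0.35 to -0.13). The clearance receptor, which takes up and degrades all natriuretic peptides, had 1798 Madoi reads and 2681 Maqu reads, a ratio of -0.47 (-0.55 to -0.38). Receptors are made in many tissues, lung and liver among them, and the pools do not show which tissue these reads came from.

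The copies of receptor B differed in depth. Its copy of 2374 bases, assembled as 5 transcripts, had 1187 Madoi reads and 1519 Maqu reads, a log2 ratio of -0.25 (-0.36 to -0.14). Its copy of 217 bases had 12 Madoi reads and 8 Maqu reads, and the interval of its ratio, -0.72 to 2.19, spans both directions. The larger copy shared an assembly component with the receptor A copy of 627 bases, and whether reads of these related receptors were divided between them was not tested. In the authors' deposited table the log2 fold change of the larger copy is -0.04, nearer to 0 than the TMM-scaled ratio of its counts.

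That gap is not limited to receptor B. The deposited log2 fold change minus the log2 ratio of unscaled counts was taken for assembled genes with 500 or more reads in each library. Its SD was 0.00073 over 4968 assembled genes of 1 transcript. Over 4065 assembled genes of several transcripts the SD was 0.17. The larger copies of T-box protein 5 and of receptor B are of the second kind. For that copy of T-box protein 5 the deposited value is 1.17. Corin, of several transcripts, has a TMM-scaled ratio of 1.35, and 1.50 in the authors' deposited table. Ratios given for single genes are TMM-scaled, unlike those behind the SDs.

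Levels can be set side by side per length with the authors' RPKM, which scales reads to length and library size. Natriuretic peptide A stood highest, at 34.0 RPKM in Madoi and 37.6 RPKM in Maqu. In Madoi the larger copies of Nkx-2.5, T-box protein 5 and receptor B followed at 14.1, 14.0 and 13.8 RPKM, and their counting intervals overlap. In Maqu receptor B came next at 14.2 RPKM, then the clearance receptor at 7.30, Nkx-2.5 at 6.64 and T-box protein 5 at 6.20, the last 3 with overlapping intervals between neighbours.

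The order of T-box protein 5 against the clearance receptor differed between the libraries. These are levels of assembled copies, which differ within a name, so they do not rank the genes. The clearance receptor, at 5.08 RPKM in Madoi, stood below both copies of T-box protein 5 there, the smaller of which had 7.08 RPKM, and in Maqu it stood above both, the smaller of which had 3.82 RPKM. Receptor A had 2.79 RPKM in Madoi and 4.23 RPKM in Maqu. The smaller copies of Nkx-2.5 (2.97 RPKM in Madoi and 1.46 RPKM in Maqu) and of receptor B (1.25 RPKM in Madoi and 0.80 RPKM in Maqu) were at the low end.

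**Figure D2:**
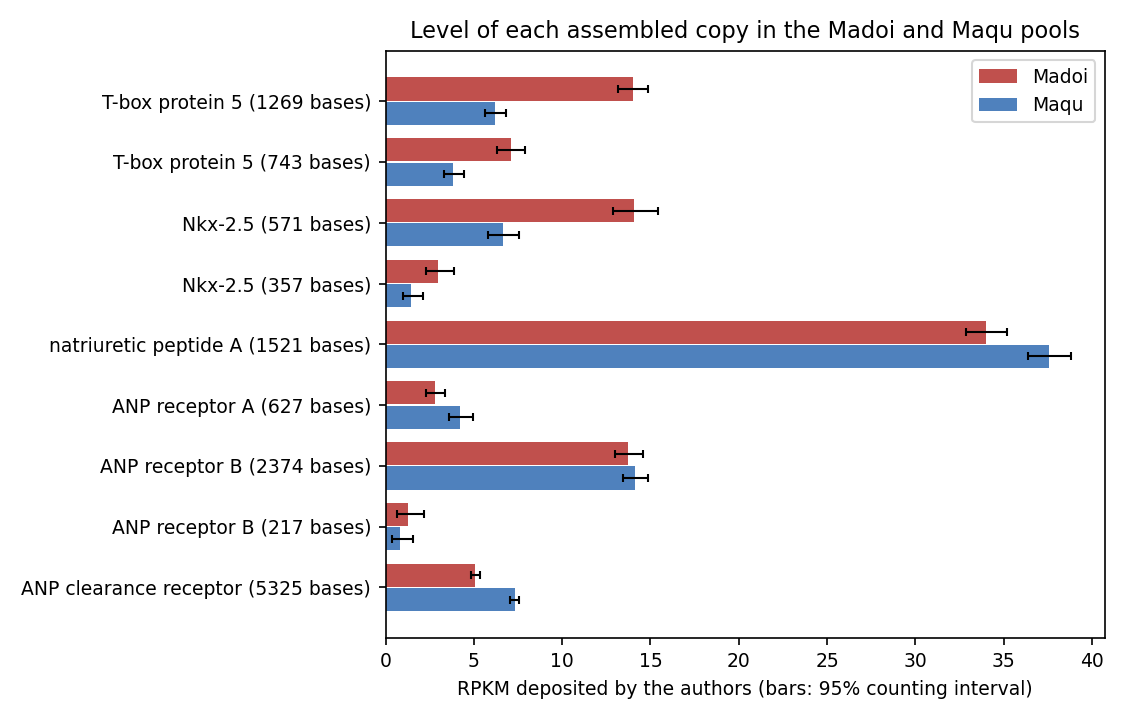
RPKM deposited by the authors on the x axis for each of the 9 assembled copies, in Madoi (red) and Maqu (blue); bars are 95% counting intervals of 1 library each, and ANP stands for atrial natriuretic peptide. Natriuretic peptide A is highest in both libraries at 34.0 RPKM in Madoi and 37.6 RPKM in Maqu, and the 4 copies of T-box protein 5 and Nkx-2.5 have Madoi intervals that lie above their Maqu intervals.

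Heart content of the pools was approximated by 5 contractile and calcium-handling markers of heart muscle, of 6 sought, none of them at 0 reads. Their summed level was 2679 CPM (counts scaled to library size) for Madoi and 1814 CPM for Maqu, which is a log2 ratio of 0.56. The names of this list did not move alike. Cardiac troponin T, which holds the thin filament's calcium switch in place, stood at 0.89, cardiac troponin I at 0.50, cardiac alpha actin at 0.30 and ryanodine receptor 2, the calcium release channel of heart muscle, at 0.26. Phospholamban, the brake on the calcium pump, stood at -0.42, with 1991 Madoi reads and 2878 Maqu reads. Most of the 167634 Madoi marker reads came from cardiac troponin T (71462), cardiac alpha actin (51489) and cardiac troponin I (40598). In Maqu these names had 41674, 45155 and 30883 of 122473 marker reads. Phospholamban and ryanodine receptor 2, the latter with 2094 Madoi reads and 1883 Maqu reads, therefore had little weight in the sum. The pools also held skeletal muscle, and whether the marker reads came from heart alone was not tested. Alpha skeletal actin had 451335 Madoi reads and 568162 Maqu reads. Whether reads were divided between it and cardiac alpha actin was not tested.

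Expressed per heart marker read in place of per library, T-box protein 5 had a log2 ratio of 0.67 (0.53 to 0.81) and Nkx-2.5 one of 0.57 (0.36 to 0.79), both under 2-fold. Natriuretic peptide A had -0.65 (-0.72 to -0.58) on that scale. This scaling was chosen after the data were seen. The 5 marker ratios span -0.42 to 0.89, so the values on this scale depend on which markers enter the sum. Cardiac troponin T, troponin I and alpha actin made up most of that sum, and phospholamban hardly entered it. The part of heart content in the ratios of the members was not tested.

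**Figure D3:**
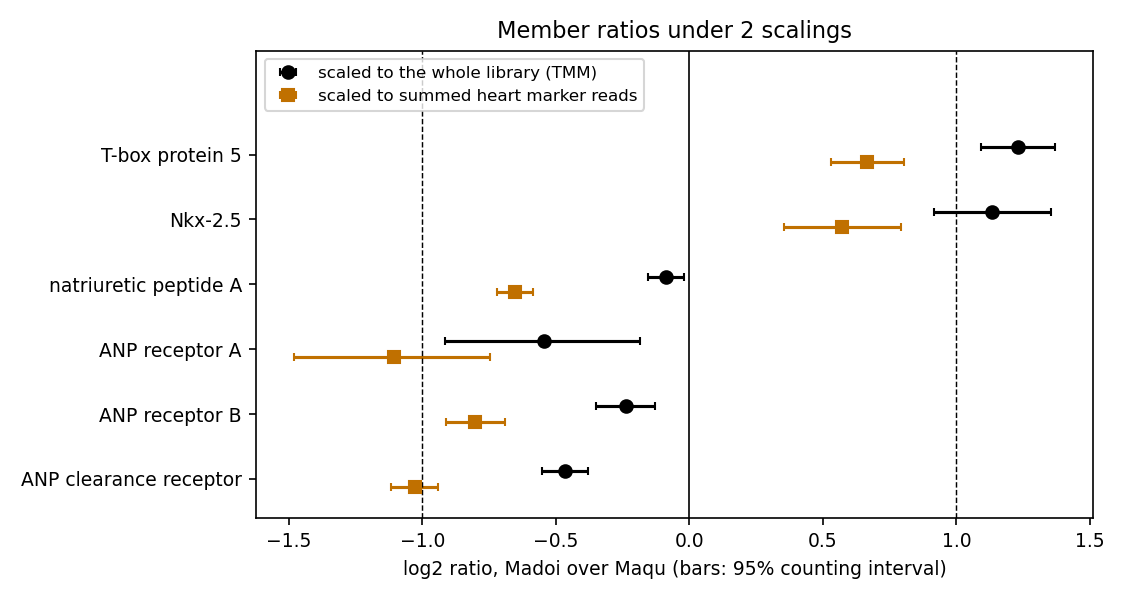
Log2 ratio of Madoi over Maqu on the x axis for the 6 member names, scaled to the whole library (black circles) and to the summed reads of 5 heart muscle markers (orange squares), with 95% counting intervals and dashed lines at 2-fold; ANP stands for atrial natriuretic peptide. T-box protein 5 moves to 0.67 and Nkx-2.5 to 0.57 under the second scaling, inside the 2-fold lines, and the clearance receptor to -1.03.

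Markers of the other pooled tissues differed in their own ways. Of 7 skeletal muscle markers sought, 5 were found, with 0 calls, and they summed to 12996 CPM for Madoi and 13901 CPM for Maqu. Of 8 liver markers, 7 were found, with 1 higher in Madoi and 2 lower, and they summed to 1354 CPM for Madoi and 2463 CPM for Maqu. Of 7 lung markers, 5 were found, with 0 higher and 2 lower, and they summed to 539 CPM for Madoi and 918 CPM for Maqu. Over all 4702 names, 5.89% were called higher and 7.15% lower. None of the markers found was at 0 reads. T-box protein 5 is also made in lung mesenchyme in mouse, beside its close paralog T-box protein 4. In these pools T-box protein 4 had 1892 Madoi reads and 1371 Maqu reads, a log2 ratio of 0.57, whereas surfactant protein A and the lung factor homeobox protein Nkx-2.1 were lower in Madoi at -1.12 and -1.38. Of the other lung markers, surfactant protein D stood at -0.998, just short of 2-fold. It passed 2-fold by library totals, at -1.05, and when its copy with the most reads stood for the sum, at -1.76. Lysosomal-associated membrane protein 3 was level, with 8763 Madoi reads and 9462 Maqu reads. The part of tissue content in these values was not tested.

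Other transcription factors of the heart stood on both sides of 0, with 8 names above it and 3 below. This split is by sign alone. Serum response factor, at 0.01 (-0.17 to 0.19), turned to -0.04 by library totals. The intervals of the heart- and neural crest derivatives-expressed protein and of T-box protein 18 also include 0. Annotation texts were found for 11 of 18 entries sought, all with at least 10 reads, and their median log2 ratio was 0.08, beside 0.0012 over all 4702 names. Of the 11, 1 was called higher in Madoi, 1 lower and 9 neither, beside 5.89% higher and 7.15% lower over all names, so calls in this list were about as frequent as elsewhere. The one that was higher was T-box protein 20, a partner of Nkx-2.5 and GATA factors in the mouse heart, with 1270 Madoi reads and 533 Maqu reads, a ratio of 1.36 (1.22 to 1.51).

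T-box protein 1, which acts in the outflow tract and pharynx of the embryo, was lower, with 247 Madoi reads and 608 Maqu reads, a log2 ratio of -1.19 (-1.41 to -0.97). The GATA-binding proteins 4, 5 and 6, which share one text, had 3956 Madoi reads and 2736 Maqu reads over 7 copies, a ratio of 0.64. Their copy with the most reads alone stood at 0.35. The muscle enhancer factors stood at 0.34 for 2A, 0.08 for 2C and -0.35 for 2D. MADS-box transcription enhancer factor 2C had the most reads of the list, 11901 Madoi reads and 12174 Maqu reads. The factor 2A passed the threshold, at 1.07, when its copy with the most reads stood for the sum. T-box protein 18, a factor of the sinus node and epicardium in mouse, had 482 Madoi reads and 580 Maqu reads, a ratio of -0.16 (-0.33 to 0.02).

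Within the natriuretic peptide pathway the one call was corin, the heart protease that activates the hormone. Corin had 1717 Madoi reads and 727 Maqu reads, which made it 2.55-fold higher in Madoi, a log2 ratio of 1.35 (1.22 to 1.48). The authors' deposited table does not mark corin as significant. Of the 8 names found among 11 sought, 1 was called higher, 0 lower and 7 neither, beside 5.89% higher and 7.15% lower over all names. The median log2 ratio was -0.26 with the 3 receptors and 0.40 over the 5 names that were no members. The protease insulysin, which can degrade the peptides, had 3168 Madoi reads and 2176 Maqu reads (0.65), and neprilysin 3974 Madoi reads and 3260 Maqu reads (0.40).

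Furin, a general convertase, had 4323 Madoi reads and 5677 Maqu reads, a log2 ratio of -0.28. The cGMP-dependent protein kinase, which carries the signal on inside the cell, had 1672 Madoi reads and 2244 Maqu reads, a ratio of -0.31. That ratio turned to 0.20 when its copies without Maqu reads, which may not be lizard, were added. Per heart marker read, corin stood at 0.79 (0.66 to 0.91), under 2-fold, and T-box protein 20 at 0.80 (0.65 to 0.95).

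Among 14 heart muscle names found of 25 sought, which include the 5 markers above, 1 was called higher in Madoi, 0 lower and 13 neither, beside 5.89% higher and 7.15% lower over all names. The median log2 ratio of the list was 0.35. The one called was the inward rectifier potassium channel subfamily J, member 5, with 1151 Madoi reads and 519 Maqu reads, a ratio of 1.26 (1.11 to 1.41). In the mammalian atrium this subunit forms the acetylcholine-gated channel together with member 3, which had 148 Madoi reads and 295 Maqu reads, a ratio of -0.88 (-1.18 to -0.60). Gap junction protein alpha 5, which couples atrial cells and the conduction system and is a target of T-box protein 5 and Nkx-2.5 in mouse, had 2491 Madoi reads and 1970 Maqu reads (0.45). Gap junction protein alpha 1, found in many tissues, had 327 Madoi reads and 629 Maqu reads (-0.83). The heart sodium channel, type V alpha, had 3504 Madoi reads and 2525 Maqu reads (0.58).

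**Figure D4:**
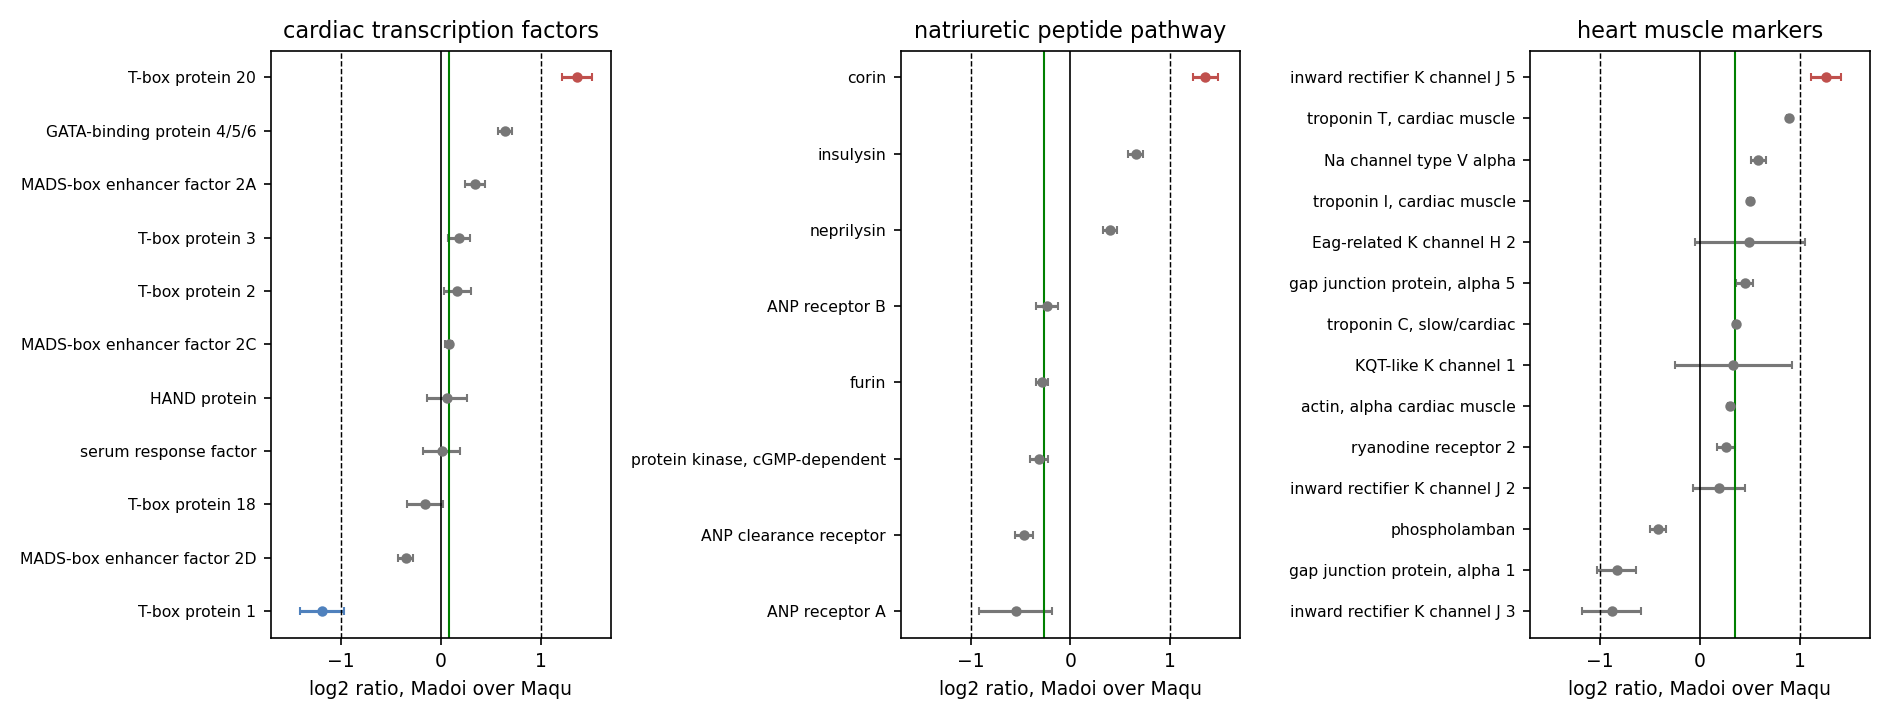
Log2 ratio of Madoi over Maqu on the x axis for the names of 3 lists, with exact 95% counting intervals; red marks names called higher in Madoi, blue lower and grey neither, dashed lines mark 2-fold, green lines the list median, and ANP stands for atrial natriuretic peptide. T-box protein 20 at 1.36, corin at 1.35 and the potassium channel J 5 at 1.26 are the names called higher, and T-box protein 1 at -1.19 is the one called lower.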

How the data were processed

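Total RNA of adult liver, lung, heart and muscle was isolated (SV Total RNA system, Promega) and sequenced by standard Illumina protocols, 1 pooled library per population, per the labels. Trinity and BLAST were used, per the series' design text; the aligner, the counter, their versions and the test are not stated there. The authors deposited expected counts, RPKM, log2 fold changes (log2 of the Madoi over the Maqu RPKM, as found from the values), p-values and FDR in one table. It held 0 columns of other samples.

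Expected counts were rounded and scaled by TMM (edgeR 4.0.16), by which the Madoi factor was 0.983 and the Maqu factor 1.02; ratios had 0.5 reads, scaled to library size, added as pseudocount. Intervals are exact 95% Clopper-Pearson intervals of the share of reads in Madoi. Copies of one name were summed, leaving out copies with 0 reads in Maqu. Reads are not independent molecules, and intervals cover counting error only. The calls were tested on simulated counts that held counting error only, with planted differences well above 2-fold. That simulation cannot speak to spread between libraries or to ratios near the 2-fold threshold.

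The members, the lists and the threshold were chosen with earlier results of these libraries known. Annotation texts were matched to the lists by hand, and some texts that cover a wider family (myosin chains, calcium pumps, cyclic nucleotide phosphodiesterases) were left out. Other texts that cover several genes were kept. Among these were GATA-binding proteins 4, 5 and 6, the heart- and neural crest derivatives-expressed protein and the cGMP-dependent protein kinase. Named are all members, and from each list the 3 highest, the 3 lowest and the 3 names with most reads, with a few others chosen after their values were seen. The remaining names of the lists enter the counts and medians only, and 1 gene sought for a list is left out of these too and not reported here. Alternatives were scaling by library totals or by the median of ratios (DESeq2 1.42.0), a pseudocount of 5 reads, no filter or one of 50 reads, a 4-fold threshold, no interval, the copy with the most reads, all copies, and RPKM.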

Additional observations from a re-analysis of the deposited data

How the results depend on the processing

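T-box protein 5 and Nkx-2.5 kept their direction and stayed above 2-fold under 6 alternatives each. These were library totals, the median of ratios, a pseudocount of 5 reads, the copy with the most reads, all copies and the RPKM ratio. Using all copies could change nothing here, because each member copy had reads in Maqu. The RPKM ratio was judged by the 2-fold threshold alone, without an interval. It was taken of RPKM values summed over copies, which differ in length. The log2 ratios lay between 1.07 and 1.33 for T-box protein 5 and between 1.07 and 1.14 for Nkx-2.5, so both stayed close to the threshold. Scaling to heart marker reads, chosen after the data were seen, lowers every log2 ratio by about 0.56 by its construction. On that scale T-box protein 5 and Nkx-2.5 stood at 0.67 and 0.57 and natriuretic peptide A at -0.65. Receptor A and the clearance receptor passed the 2-fold threshold at -1.11 (-1.48 to -0.75) and -1.03 (-1.12 to -0.94). Both intervals span that threshold. By RPKM summed over its copies, receptor B stood at 0.0048, the other side of 0 from its counts. Its larger copy alone had -0.04, the same side as its counts. Under the 7 alternatives run for each list, the median lay between 0.03 and 0.08 for the transcription factors, -0.31 and -0.02 for the peptide pathway and 0.30 and 0.35 for heart muscle. The assembled genes called higher in Madoi numbered 16648, and 10938 with a filter of 50 reads. Those called lower numbered 6270, and 3815 with that filter and 2200 at 4-fold; the filter leaves fewer assembled genes eligible and the 4-fold threshold is stricter by construction. No paired analysis was possible because each population has 1 library. Depth limits the 217-base copy of receptor B and the 357-base copy of Nkx-2.5 most.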

Other observations

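Assembled genes without an annotation text stood beside members in the same assembly components, and were looked at after the members' values were seen. One of 621 bases, in the component of the larger Nkx-2.5 copy, had 349 Madoi reads and 187 Maqu reads, a log2 ratio of 1.01 (0.75 to 1.27). One of 276 bases, in the component of T-box protein 5, had 36 Madoi reads and 23 Maqu reads, a ratio of 0.74 (-0.04 to 1.58). Whether they belong to the same genes was not tested.

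Among the 9 other T-box names, a family looked at after its values were seen, 2 were called higher in Madoi and 2 lower, beside 5.89% higher and 7.15% lower over all 4702 names. Besides T-box proteins 20 and 1 these were T-box protein 6, with 16 Madoi reads and 5 Maqu reads, and T-box protein 22, with 17 Madoi reads and 71 Maqu reads. Both rest on few reads. Their log2 ratios were 1.69 (0.27 to 3.59) for T-box protein 6, whose interval spans 2-fold, and -1.92 (-2.81 to -1.17) for T-box protein 22. T-box proteins 2 and 3, which act in the conduction system of the mouse heart, stood at 0.17 and 0.18.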
